A study of Homo sapiens with 3 samples.

Results

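Interleukin receptor chains were read in THP-1 macrophages through 10 genes, namely IL2RA, IL7R, IL4R, IL6R, IL10RA, IL13RA1, IL15RA, IL21R, IL3RA, and IL2RG. Every transcript probe that the array design names after one of these genes was taken, which gave 19 probes for the 10 genes among 58201 probes and 43317 gene names. The cells derive from THP-1, a line of human monocytic leukemia, and became macrophage-like under the phorbol ester PMA. The labels give PMA at 100 ng/mL for 24 to 36 h in all groups. The groups were untreated macrophages (Ctrl), macrophages given imiquimod (IMQ), a synthetic ligand of toll-like receptor 7, and macrophages given IMQ together with a compound that the labels write as X (IMQ+X). X was read as DMD, a benzenoid from the fungus Antrodia cinnamomea with 2 methoxy groups, since it is the only other compound that the series text names. A time of 4 h is labelled for every group, while the methods describe 1 h of DMD and then 24 h of IMQ, at 10 μg/mL each, for the THP-1 work in general. Each group was 1 array, and the 3 arrays were on 1 slide, so differences below come without p-values or any check by replicates. A cell line is 1 clone, and fewer responding cells cannot be told apart from less RNA per cell.

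Interleukin receptors are built from chains that pair when a cytokine binds. IL2RG, the common gamma chain, is shared by the receptors for several interleukins, whose private chains here are IL2RA, IL7R, IL4R, IL15RA, and IL21R. IL13RA1 can take the place of IL2RG beside IL4R, IL3RA pairs with the common beta chain CSF2RB, IL6R with gp130 (IL6ST), and IL10RA with IL10RB. Within the assembled receptor, JAK kinases at the inner ends of the signaling chains phosphorylate STAT transcription factors, and not every chain named here holds such a kinase. In macrophages, IL-10 signaling through STAT3 is known for restraining inflammation, and IL-4 and IL-13 signaling through STAT6 for alternative activation.

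The upstream bases of the genes with the largest changes after IMQ are shown, since IL7R and IL3RA were both higher and IL21R was lower. They are the 250 bases before the annotated start in RefSeq (GRCh38.p14), written 5′ to 3′ in the direction of the gene. Capitals mark matches to the STAT motif TTCNNNGAA, the AP-1 motif TGANTCA, or the NF-κB motif on either strand.
IL7R, plus strand of chr5:35856641-35856890: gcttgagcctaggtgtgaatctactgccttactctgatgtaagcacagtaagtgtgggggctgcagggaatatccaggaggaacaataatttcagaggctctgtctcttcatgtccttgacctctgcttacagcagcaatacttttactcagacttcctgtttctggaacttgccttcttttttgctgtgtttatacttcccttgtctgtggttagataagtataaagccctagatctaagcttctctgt
IL3RA, plus strand of chrX:1336535-1336784: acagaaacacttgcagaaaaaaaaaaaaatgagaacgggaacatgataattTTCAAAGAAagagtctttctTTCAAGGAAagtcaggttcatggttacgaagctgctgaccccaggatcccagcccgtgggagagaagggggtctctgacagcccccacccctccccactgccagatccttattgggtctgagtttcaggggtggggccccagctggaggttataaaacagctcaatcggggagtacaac
IL21R, plus strand of chr16:27427021-27427270: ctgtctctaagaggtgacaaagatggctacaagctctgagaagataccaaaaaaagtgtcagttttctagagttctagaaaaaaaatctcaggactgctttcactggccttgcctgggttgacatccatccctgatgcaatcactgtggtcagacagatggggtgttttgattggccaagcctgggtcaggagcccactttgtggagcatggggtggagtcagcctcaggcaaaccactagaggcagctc
The stretch of IL3RA held 2 matches to the STAT motif, at positions -199 and -179 from the start, and another match began at position 13. The windows of IL7R and IL21R held none of the 3 motifs. Over the full 300-base windows, which run 50 bases past the start, the STAT motif was found in 2 of the 10 genes (IL3RA and IL15RA), the AP-1 motif in 3 (IL6R, IL10RA, and IL15RA), and the NF-κB motif in 3 (IL2RA, IL4R, and IL15RA). In all 35093 windows of the RefSeq table, the shares were 7.66% for the STAT motif, 7.71% for AP-1, and 11.3% for NF-κB. IL2RG and IL13RA1 held none either, and IL15RA was searched in 4 alternative windows, against 1 for each of the others.

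Values are log2 of the quantile-normalized fluorescence that the authors deposited. The scanner software rated 66.6% to 72.0% of all probes per array well above background. The lowest value among those probes, here called the floor, was 4.04 for Ctrl, 4.57 for IMQ, and 4.08 for IMQ+X. Of the 19 receptor probes, 16 passed that rating on each of the 3 arrays, 1 on a single array, and both probes of IL2RA on none. No transcript spot of the arrays was saturated (0 spots). The brightness of a probe depends on its sequence, so levels were compared between arrays and never between probes. A gene counted as changed at 2-fold or more, in the probe with the highest mean log2 level. The expected noise within an array was taken from 300 probes that were each spotted 10 times, at the brightness of the probe in question. Too few repeated spots lay between log2 levels of 4 and 5, so the noise between 3 and 4 was used there.

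**Figure D1:**
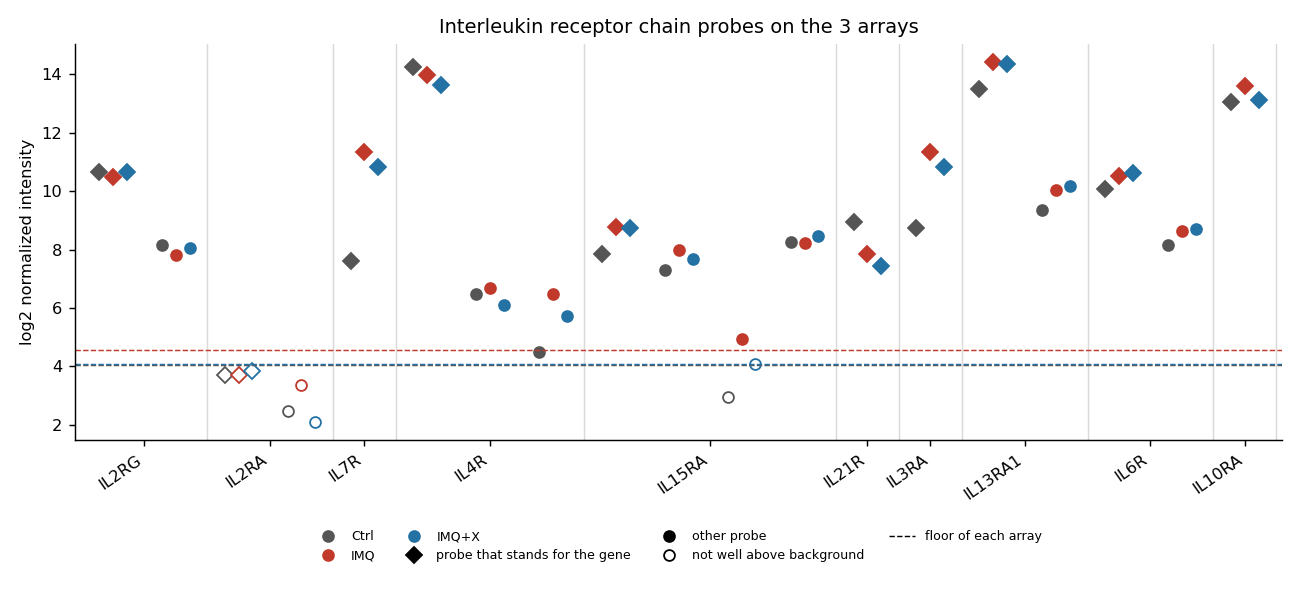
Log2 normalized intensity (y axis) of the 19 probes of the 10 receptor genes (x axis) on the Ctrl, IMQ, and IMQ+X arrays. Diamonds are the probe that stands for the gene, open symbols are values not well above background, and dashed lines are the floors. IL7R and IL3RA stand far lower on the Ctrl array than on the other arrays, and both IL2RA probes lie below the floors.

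After IMQ, 2 of the 9 receptor genes that could be compared were at least 2-fold higher than in Ctrl macrophages (IL7R and IL3RA), where 4.17% of 31849 genes were. IL21R was the 1 receptor gene at least 2-fold lower, where 3.59% of genes were. The median log2 difference of the 9 was 0.54, and that of all genes was -0.02. Of the 9, 6 lay above 0 and 3 below. Among the 17 receptor probes compared, 14 differed by more than 2 SDs of repeated spots, a spread that leaves out all variation between cultures and arrays. The share of all probes past that limit was not computed, so the count cannot show whether this is particular to the receptor genes. For all genes, the 25th and 75th percentiles of the difference were -0.29 and 0.25.

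IL7R, the chain that binds IL-7 and, beside CRLF2, also TSLP, had the largest rise of the receptor genes. Its only probe (hg19 chr5:35876781-35876840) read 7.62 in Ctrl, 11.33 in IMQ, and 10.81 in IMQ+X macrophages. The Ctrl value was by far the lowest, and the value with X lay between the others but close to IMQ. The difference of IMQ from Ctrl was 3.70 on the log2 scale (13.0-fold, with a repeated-spot SD of 0.11), which ranked 46th from the top among 31849 genes. IMQ+X was 0.51 below IMQ (1.43-fold), against a repeated-spot SD of 0.07, and 86.2% of the log2 rise remained. Among 18221 named genes, those with the pair of differences most like IL7R were the chemokine receptor CXCR4 (3.64 for IMQ against Ctrl and -0.49 for IMQ+X against IMQ), at a distance of 0.06, followed by TBX2 (3.58 and -0.56) and EVA1A (3.62 and -0.40). That likeness rests on 3 arrays.

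IL3RA, the chain that binds IL-3, gave a similar picture. The probe (hg19 chrX:1501487-1501546) read 8.74 in Ctrl, 11.33 in IMQ, and 10.83 in IMQ+X macrophages. Again the Ctrl array was lowest and the IMQ array highest. The rise with IMQ was 2.59 (6.02-fold), with a repeated-spot SD of 0.08, and ranked 144th from the top. IMQ+X lay 0.51 below IMQ (1.42-fold), and 80.5% of the log2 rise remained.

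IL21R, the private chain for IL-21, went the other way. Its probe (hg19 chr16:27461324-27461383) read 8.93 in Ctrl, 7.84 in IMQ, and 7.44 in IMQ+X macrophages, so that the IMQ+X array was the lowest. The value after IMQ was 1.09 below Ctrl (2.13-fold), and 2.86% of genes were as low or lower. IMQ+X was a further 0.40 below IMQ, with a repeated-spot SD of 0.14, and 1.49 below Ctrl (2.81-fold). The scanner pixels of this spot on the IMQ+X array varied by 23.3% of their mean, and 3.98% of spots of like brightness were as uneven. The nearest genes in pattern were SLC2A5, a fructose transporter (-1.10 and -0.38), SLC24A3 (-1.12 and -0.42), and EEF1A2 (-1.13 and -0.39).

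The receptors for IL-13, IL-15, IL-6, and IL-10 were higher after IMQ by less than 2-fold in the probes that stand for the genes. IL13RA1 read 13.51, 14.43, and 14.37 on the Ctrl, IMQ, and IMQ+X arrays in its brighter probe (hg19 chrX:117928406-117928465), a difference of 0.92 (1.89-fold) for IMQ against Ctrl. Its other probe, whose target runs across 2955 bases of hg19 (chrX:117892164-117895118), read 9.35, 10.05, and 10.16, a difference of 0.70. Both probes were lowest on the Ctrl array, and they placed IMQ and IMQ+X in opposite order, by less than 2 SDs of repeated spots. The pixels of the spots of both probes were uneven on every array, and 5.21% to 7.89% of spots of like brightness were as uneven. IL6R, which binds IL-6, had probes at hg19 chr1:154440037-154440096 and chr1:154407568-154407627 with like differences of 0.46 and 0.49 after IMQ. The former read 10.07, 10.53, and 10.61, and the latter 8.15, 8.64, and 8.70. In both, the IMQ and IMQ+X arrays differed by less than 2 SDs of repeated spots, and Ctrl was lower than either. Of the receptor spots, that of the dimmer IL6R probe was the most uneven on the IMQ array, where 2.21% of spots of like brightness were as uneven.

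IL10RA binds IL-10. Its probe (hg19 chr11:117872070-117872129) read 13.06 in Ctrl, 13.60 in IMQ, and 13.12 in IMQ+X macrophages. IMQ was 0.54 above Ctrl (1.45-fold), and 11.9% of genes were as high or higher. IMQ+X was 0.48 below IMQ, against a repeated-spot SD of 0.06, and 0.06 above Ctrl, which is within that noise. This last difference depended on the scaling, with -0.43 without normalization and -0.35 with spike-in controls, and under the latter IL10RA was 0.029 above Ctrl after IMQ.

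The 4 probes of IL15RA, the private chain for IL-15, did not give 1 answer. The brightest (hg19 chr10:5994661-5994720) read 7.85, 8.78, and 8.72 on the Ctrl, IMQ, and IMQ+X arrays, 0.93 higher after IMQ. The probe at chr10:5995058-5995117 read 7.29, 7.97, and 7.69, 0.68 higher, and the probe at chr10:5995191-5995250 read 8.27, 8.21, and 8.48, a difference of -0.06. The Ctrl array was thus lowest in 2 of these probes and not in the third. The last probe (chr10:6008193-6008252) was well above background on the IMQ array alone, at 4.94, which was at least 1.86-fold above Ctrl and at least 1.81-fold above IMQ+X, with a repeated-spot SD of 0.93 on the log2 scale. Probes of IL4R, the chain that binds IL-4, disagreed as well. The bright probe (hg19 chr16:27375999-27376058) read 14.26, 13.99, and 13.65, highest in Ctrl and lowest in IMQ+X, with differences under 2-fold (1.53-fold for IMQ+X against Ctrl). A probe at chr16:27357879-27357938 read 6.48, 6.69, and 6.10, and its difference after IMQ of 0.21 was smaller than its repeated-spot SD of 0.30. The probe at chr16:27352462-27352521, which the design ties to the same transcript record as the previous probe, read 4.49, 6.47, and 5.73. It was 1.98 higher after IMQ (3.94-fold), with a repeated-spot SD of 0.69, and sat close to the floor in Ctrl. In all 3 IL4R probes, IMQ+X was lower than IMQ, by 0.34 to 0.75.

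Some probes of the receptor genes are shown as the array design gives them, to identify the bases that were read. The first is the IL15RA probe seen on the IMQ array alone, the second is the IL4R probe of middle brightness, and the third is the brighter of the IL2RA probes that were not well above background.
IL15RA, hg19 chr10:6008193-6008252: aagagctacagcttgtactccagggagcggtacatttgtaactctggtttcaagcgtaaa
IL4R, hg19 chr16:27357879-27357938: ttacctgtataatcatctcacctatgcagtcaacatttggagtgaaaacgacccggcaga
IL2RA, hg19 chr10:6067839-6067898: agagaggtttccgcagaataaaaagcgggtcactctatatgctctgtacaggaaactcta
The IL2RA probe read 3.71, 3.72, and 3.85 on the Ctrl, IMQ, and IMQ+X arrays, and the other IL2RA probe 2.46, 3.35, and 2.11. All 6 values lay below the floors of their arrays. IL2RA encodes the alpha chain that gives the IL-2 receptor its high affinity, and no fold was computed for it. IL2RG was well above background in both probes. Its brighter probe (hg19 chrX:70327271-70327330) read 10.67, 10.48, and 10.64, and its other probe (chrX:70328480-70328539) read 8.16, 7.82, and 8.06. In both, the IMQ array was lowest (-0.18 and -0.35 against Ctrl), and IMQ+X lay closer to Ctrl (-0.02 and -0.10).

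**Figure D2:**
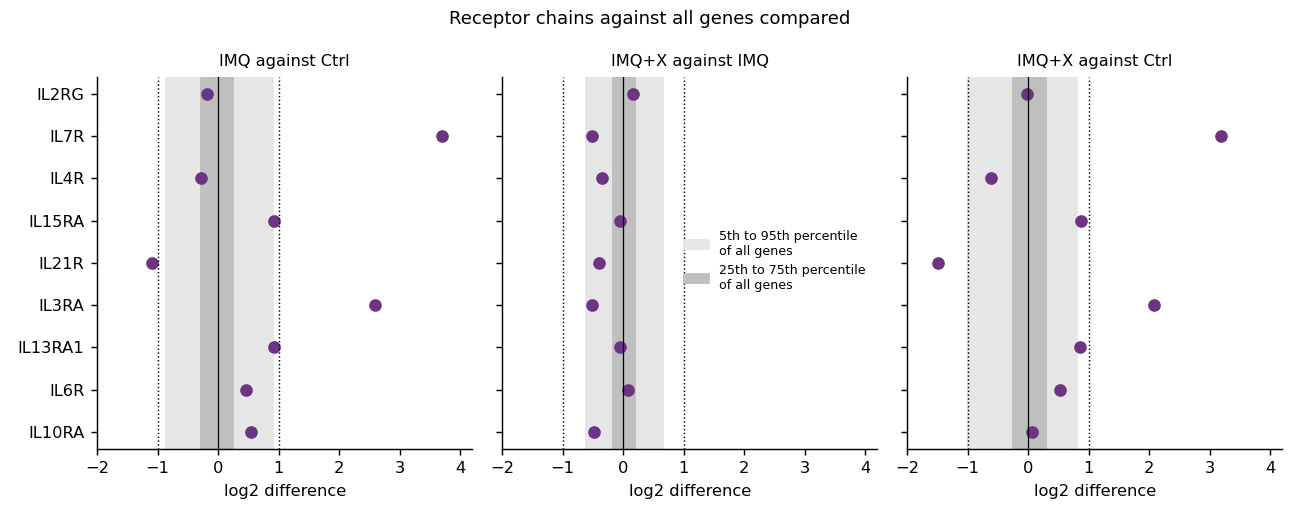
Log2 differences (x axis) of the 9 receptor genes that could be compared (y axis), 1 panel for each pair of arrays. Light and dark bands hold the middle ranges of all genes compared, and dotted lines mark 2-fold. IL7R and IL3RA lie beyond 2-fold on the higher side in the panels of IMQ and IMQ+X against Ctrl and inside the light band for IMQ+X against IMQ.

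With X added to IMQ, none of the 9 receptor genes passed 2-fold against IMQ (0 higher and 0 lower), where 1.19% of 31699 genes were at least 2-fold higher and 1.25% were at least 2-fold lower. The median of the 9 was -0.34, beside 0.00 for all genes, with 7 below 0 and 2 above. The lowest were IL7R, IL3RA (-0.51 each), IL10RA (-0.48), IL21R (-0.40), and IL4R (-0.34). The share of all genes as low or lower was 7.03% for IL7R, 7.21% for IL3RA, 7.85% for IL10RA, 10.4% for IL21R, and 13.1% for IL4R. IL13RA1 and IL15RA (-0.06 each), IL6R (0.08), and IL2RG (0.16) lay near 0. Of the 17 probes compared, 9 differed by more than 2 SDs of repeated spots, again with no share of all probes computed beside it. For all genes, the 25th and 75th percentiles were -0.17 and 0.19. The same IMQ array enters both this comparison and that of IMQ with Ctrl, so a high reading on it enters both with opposite signs.

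Against Ctrl, IMQ+X macrophages again had IL7R (3.19, 9.14-fold) and IL3RA (2.08, 4.24-fold) as the 2 receptor genes at least 2-fold higher, where 3.04% of 33707 genes were. IL21R was the 1 that was at least 2-fold lower, where 4.83% of genes were. IL15RA (0.87) and IL13RA1 (0.86) stood close below 2-fold in the probes used, though other IL15RA probes read 0.40 and 0.20. IL2RG (-0.02) and IL10RA (0.06) differed from Ctrl by less than 2 SDs of repeated spots.

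Cytokines that bind these receptors were read from 10 genes. After IMQ, IL6 and IL10 were at least 2-fold higher among the 6 that could be compared, where 4.17% of all genes were. The 6 had a median of 0.45. IL6, a pro-inflammatory cytokine, read 5.78, 8.74, and 8.10 on the Ctrl, IMQ, and IMQ+X arrays, which is 7.73-fold higher after IMQ. IL10 read 6.25, 9.04, and 8.66, which is 6.95-fold higher. Each was highest on the IMQ array, and IMQ+X was lower by 0.64 for IL6 and by 0.38 for IL10. IL2 and IL13 were well above background on the Ctrl array alone. IMQ was below Ctrl by at least 1.69-fold for IL2 and at least 1.46-fold for IL13. The bounds for IMQ+X against Ctrl were 2.38-fold and 2.05-fold, where 4.83% of all genes were at least 2-fold lower. Both genes lay below the floor on both treated arrays. The bounds differ because the floor was 4.57 for IMQ and 4.08 for IMQ+X. IL7, the ligand of the chain that rose most, was not well above background on any array, and neither were IL3, IL4, and TSLP. IL15 (0.54 after IMQ) and IL21 (0.37) stayed under 2-fold.

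Of the chains that pair with the receptors or are close relatives, 1 of 9 was at least 2-fold higher after IMQ and none lower (0 of 9). The shares of all genes were 4.17% and 3.59%, and the median of the 9 was 0.18. CSF2RA, which binds GM-CSF and shares CSF2RB with IL3RA, read 6.68, 9.10, and 9.64 on the Ctrl, IMQ, and IMQ+X arrays. It was 5.35-fold higher after IMQ, and unlike IL3RA it was highest with X (0.54 above IMQ). CRLF2, the partner of IL7R for TSLP, was 0.95 higher after IMQ in the probe used and 2.48 higher in its other probe. The shared chains differed after IMQ by 0.16 for CSF2RB, 0.29 for IL6ST, 0.18 for IL10RB, and -0.01 for IL2RB. IL13RA2 (0.58), IL9R (-0.02), and IL11RA (-0.25) stayed under 2-fold, and IL5RA was not well above background on any array. The median of the 9 was 0.01 for IMQ+X against IMQ.

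None of the 4 JAK kinases passed 2-fold after IMQ (0 higher and 0 lower). JAK1 was 0.64 higher and JAK2 0.72 lower, with JAK3 at 0.22 and TYK2 at 0.15. IMQ+X lay below IMQ for JAK3 (-0.70), JAK1 (-0.28), and JAK2 (-0.24), and slightly above it for TYK2 (0.07). The 5 STAT genes had a median of -0.02 after IMQ, with none past 2-fold (0 of 5), and a range from -0.43 to 0.88. Of 8 known STAT targets and feedback genes, 2 were at least 2-fold higher after IMQ, and none lower (0 of 8), where 4.17% and 3.59% of all genes were. SOCS3, an inhibitor of signaling through gp130, read 5.35 in Ctrl, 10.78 in IMQ, and 10.32 in IMQ+X macrophages, which is 43.1-fold higher after IMQ. Both treated arrays were thus far above Ctrl. SOCS2 read 6.79, 8.29, and 7.62, which is 2.83-fold higher after IMQ and 0.67 lower with X than with IMQ. With X, the targets had a median of -0.23 against IMQ, with none past 2-fold (0 of 8), where 1.19% of all genes were higher and 1.25% lower.

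**Figure D3:**
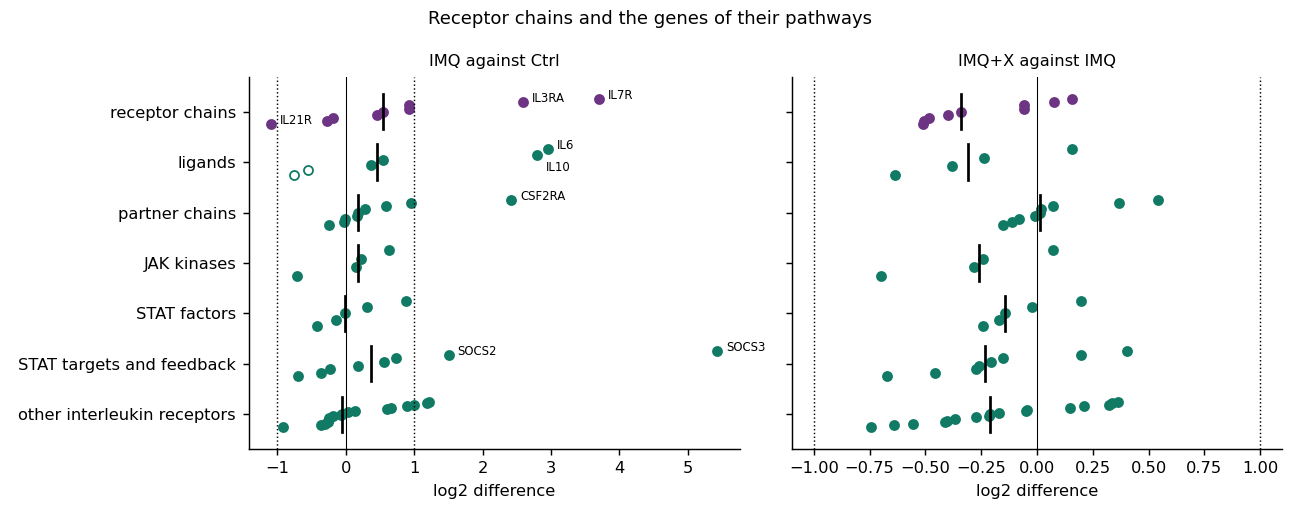
Log2 differences (x axis) of the receptor genes and of the genes of their pathways (rows), for IMQ against Ctrl and IMQ+X against IMQ, each dot a gene and each bar the median of its list. Open dots are bounds, dotted lines mark 2-fold, and the panels have different x axes. SOCS3, IL7R, IL6, IL10, IL3RA, and CSF2RA stand out after IMQ, and no gene shown passes 2-fold for IMQ+X against IMQ.

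Other interleukin receptors gave the closest set for a side-by-side reading. Of 24 such genes, 18 could be compared for IMQ against Ctrl, and their median was -0.06. At least 2-fold higher were 3, where 4.17% of all genes were, and none were lower (0 of 18), where 3.59% were. They were IL1R2, the decoy receptor for IL-1 (7.20 in Ctrl and 8.20 in IMQ), IL1RAP, the accessory chain of the IL-1 family (2.28-fold), and IL18R1, a chain of the IL-18 receptor (2.32-fold). The probes of IL1RAP disagreed, as its other probes differed by -0.57 and 0.70, while those of IL18R1 were higher by 1.23 and 1.99. In the probes that stand for the genes, the highest of these differences was 1.21, below the values of IL7R and IL3RA. With X, none of 17 passed 2-fold against IMQ (0 higher and 0 lower), where 1.19% of all genes were higher and 1.25% lower. The median against IMQ was -0.21. Against Ctrl, 1 of 19 was at least 2-fold lower in IMQ+X macrophages, where 4.83% of all genes were. It was IL12RB2, a chain of the IL-12 receptor (2.20-fold). IL12RB2 was already 1.89-fold lower after IMQ, and IMQ+X was 0.22 below IMQ. The receptor for IMQ itself, TLR7, read 9.24, 6.51, and 5.75 on the Ctrl, IMQ, and IMQ+X arrays, which is 6.63-fold lower after IMQ. TLR8, a related receptor, was well above background on the Ctrl array alone. It was below Ctrl by at least 1.99997-fold after IMQ and by at least 2.81-fold with IMQ+X. These bounds differ because the floor was higher on the IMQ array (4.57) than on the IMQ+X array (4.08).

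Of 10 listed macrophage markers, 8 were found by name, and all 8 were well above background on all 3 arrays. That rating was shared by 37612 of all 58201 probes, so by itself it does not identify a cell type. The summed normalized intensity of the 8 was 297528 in Ctrl, 226473 in IMQ, and 204100 in IMQ+X. Most of that sum came from the CSF1R probe alone, at log2 levels of 17.78, 17.40, and 17.23. After IMQ, 1 of the 8 was at least 2-fold lower, where 3.59% of all genes were, and the median of the 8 was -0.49. It was CD163, a scavenger receptor (2.33-fold). Against Ctrl, 3 of the 8 were at least 2-fold lower in IMQ+X macrophages, where 4.83% of all genes were. These were CD14 (2.32-fold), FCGR1A (2.21-fold), and CD163 (2.19-fold), and the median of the 8 was -0.66. CD14 (1.63-fold) and FCGR1A (1.66-fold) were already lower after IMQ, and CD163 was 0.09 higher in IMQ+X than in IMQ. Probes for markers of other cell types were also read above background, namely 7 of 8 for T cells, 6 of 6 for B cells, 4 of 5 for NK cells, and 3 of 4 for dendritic cells on all 3 arrays. These counts too stand beside the 37612 of 58201 probes with that rating. Their summed intensity ran from 1133 to 1325 for T cells, 4212 to 5305 for B cells, 8512 to 9351 for NK cells, and 293.8 to 904.4 for dendritic cells. The sums for B cells and dendritic cells were highest in Ctrl, those for T cells and NK cells in IMQ+X. Most of the B cell sum came from CD79A and most of the NK cell sum from GNLY, at log2 levels of 12.02 and 12.83 in Ctrl. All 3 dendritic cell markers compared were at least 2-fold lower after IMQ, where 3.59% of all genes were. These were FLT3 (3.70-fold), CD1A (2.75-fold), and CD1C (2.39-fold). Of 4 NK cell markers compared, NCAM1 alone was at least 2-fold higher (8.45-fold), where 4.17% of all genes were. The others did not rise with it, with NKG7 at -0.91, NCR1 at -0.20, and GNLY at 0.19. KLRD1 and CLEC9A were not well above background on any array. The part of these markers in the receptor values was not tested.

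The arrays were also scaled in other ways. Without normalization between arrays, the median of all genes was -0.51 for IMQ against Ctrl, and with scaling to spike-in controls it was -0.69. Spike-in scaling set it at 0.32 for IMQ+X against IMQ. Relative to the median of all genes, the difference after IMQ ranged from 3.31 to 3.85 for IL7R, from 2.48 to 2.74 for IL3RA, and from -1.09 to -0.83 for IL21R over the 6 ways of scaling. IL21R was thus under 2-fold with normexp background correction (-0.85 as read). IL13RA1 passed 2-fold (1.03) with scaling to the 75th percentile. For IMQ+X against IMQ, the difference relative to all genes ranged from -0.68 to -0.43 for IL7R, -0.67 to -0.50 for IL3RA, -0.69 to -0.49 for IL10RA, -0.56 to -0.34 for IL4R, and -0.41 to -0.29 for IL21R. IL6R changed sign in that comparison, from -0.09 to 0.08, and IL2RG, at 0.16 with quantile normalization, was at or just below 0 under 3 of the scalings. As read, with no such subtraction, spike-in scaling set IL6R at -0.10 after IMQ. It also turned the sign for IMQ+X against IMQ of IL21R (0.025), IL15RA (0.24), and IL13RA1 (0.077).

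**Figure D4:**
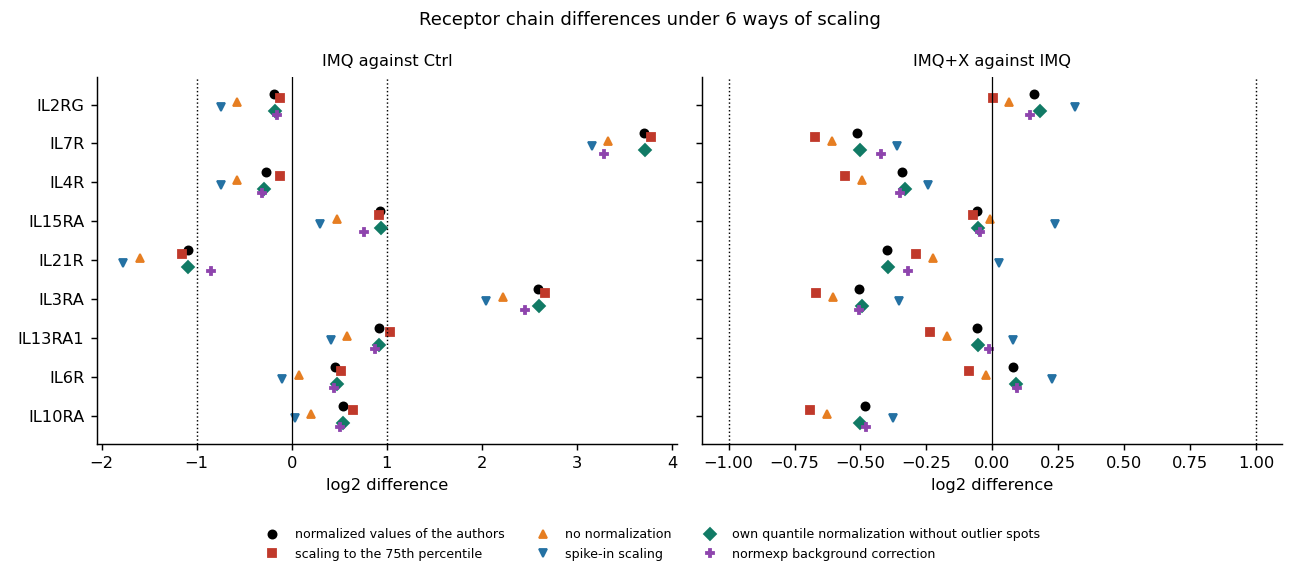
Log2 differences (x axis) of the 9 receptor genes (y axis) as read under 6 ways of scaling, for IMQ against Ctrl and IMQ+X against IMQ, with 2-fold dotted and different x axes. IL7R and IL3RA stay above 2-fold after IMQ under all 6, and spike-in scaling lies to the left of the others after IMQ and mostly to the right with X.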

How the data were processed

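RNA of 3 groups of THP-1 macrophages was measured on one-color arrays with probes of 60 bases, 1 array per group. The authors deposited scanner files, written by Feature Extraction 10.5.1.1, and a table of raw and quantile-normalized intensity for each probe. The paper names the experiment RNA sequencing, but the deposited values are fluorescence intensity. The raw intensity was equal to the scanner signal within 0.1% on each array for all 57901 probes with 1 spot. Columns of per-sample values left unused numbered 0.

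Here the normalized intensity of the authors was converted to log2, control probes were left out, and the probe of a gene whose log2 values had the highest mean stood for it. A probe not well above background was raised to the floor of the array where its own value lay lower, and a pair of arrays was compared where the brighter was well above background. A difference against a floor is a bound. The share of changed genes was taken over all genes, each read from 1 probe, in place of all probes. The number of arrays limits the precision, and there was no test. Noise within an array was the median SD of repeated spots of like log2 level, or of the nearest level with enough spots, combined over both arrays. Unevenness is the pixel SD as a percent of the pixel mean, ranked among spots within 1.5-fold in brightness.

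The receptor genes and all lists were chosen with earlier results of these data known. The lists were cytokine ligands, partner chains, JAK kinases, STAT factors, STAT targets, other interleukin receptors, receptors of IMQ, and cell type markers. Named genes were all receptor genes, the JAK and partner chain lists, genes of a list at least 2-fold changed, and the 3 genes nearest in pattern to the receptor gene with the largest rise and to that with the largest fall after IMQ, and any other gene was named after its values were seen. Nearness was the Euclidean distance of the differences for IMQ against Ctrl and IMQ+X against IMQ, over genes well above background on all 3 arrays.

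Values were recomputed with no normalization, with each array scaled to its 75th percentile or to 10 spike-in probes of 35 spots, with quantile normalization repeated without outlier-marked spots, with normexp correction at an offset of 50, and with other filters on dim probes, thresholds of 1.5-fold and 4-fold, and other choices of the probe. Spike-in scaling used the median over the probes, a choice made after their values were seen. The tools were limma 3.58.1 under R 4.3.3, and numpy 2.4.6, pandas 2.3.3, and matplotlib 3.10.9 under Python 3.11.15, and the steps were tested on simulated data. Promoters are from RefSeq (GRCh38.p14), and probe positions are from the array design (hg19). Whether a probe lies in an exon or a UTR was not analysed here, nor were protein sequences.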

Additional observations from a re-analysis of the deposited data

How the results depend on the processing

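No paired analysis was possible because the groups share only 1 replicate number and each holds 1 array. A fit with the slide as a block was not run, since all arrays were on 1 slide. The 6 counts of receptor genes past the fold gave 66 values under the alternatives, of which 59 kept within 1.5 times. Without normalization 2 genes were lower for IMQ+X against Ctrl. With normexp correction 0 were lower after IMQ. At 1.5-fold, 4 genes were higher after IMQ, and for IMQ+X against Ctrl 4 were higher and 2 lower. At 4-fold, 0 were lower in either comparison with Ctrl.

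Medians of the lists minus the median of all genes gave 126 values, of which 101 moved by less than the noise of repeated spots and 9 changed sign, each from a reported value within that noise of 0. Partner chains for IMQ+X against IMQ changed from 0.011 to between -0.060 and -0.0055 under 4 alternatives, STAT factors after IMQ from 0.0039 to -0.027 with no filter on dim probes, and other interleukin receptors after IMQ from -0.037 to 0.013 with normexp correction. For IMQ against Ctrl, the receptor genes had 0.56 and moved to 0.72 with scaling to the 75th percentile or spike-in controls and to 0.71 without normalization. Partner chains moved from 0.20 to 0.36, 0.35, and 0.35 (75th percentile, no normalization, and spike-in controls), and STAT factors from 0.00 to 0.087, 0.082, and 0.083. Between IMQ+X and IMQ, STAT factors moved from -0.15 to -0.25 under all 3, and the receptor genes from -0.34 to -0.19 with no filter on dim probes, where IL2RA enters. For IMQ+X against Ctrl, the receptor genes moved from 0.49 to 0.37 under all 3 and to 0.33 with no filter. STAT factors changed sign, from 0.0040 to -0.11, -0.10, and -0.11, and STAT targets from 0.21 to 0.12, 0.13, and 0.12. With normexp correction, JAK kinases moved from 0.20 to 0.12 after IMQ and from -0.18 to -0.049 for IMQ+X against Ctrl.

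Among 348 values of single probes, 230 moved by less than the noise of repeated spots and 17 changed sign, 9 of them from a reported value larger than that noise. Those 9 come first. Comparing IMQ+X with IMQ, the brighter IL6R probe read -0.087 at the 75th percentile and -0.024 without normalization, and the dimmer IL13RA1 probe -0.018 at the 75th percentile. With spike-in scaling, IL21R read 0.025 and an IL15RA probe 0.12 in that comparison, and the IL6R probes read -0.10 and -0.14 after IMQ. Between IMQ+X and Ctrl, another IL15RA probe read -0.18 without normalization and -0.11 with spike-in scaling. The other 8 began within the noise of 0. IL10RA read -0.042, -0.43, and -0.35 for IMQ+X against Ctrl (75th percentile, no normalization, and spike-in controls), and the middle IL4R probe read -0.37 without normalization and -0.54 with spike-in scaling after IMQ. Spike-in scaling put the brightest IL15RA probe at 0.24 and the brighter IL13RA1 probe at 0.077 with X against IMQ, and repeated quantile normalization put the brighter IL2RG probe at 0.0087 for IMQ+X against Ctrl. The cause was not tested. Dim probes were the least certain, with a repeated-spot SD of 0.66 between log2 levels of 3 and 4, against 0.04 between 14 and 15.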
